A study of Homo sapiens with 6 samples.

Results

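The KIT ligand gene KITLG and a set of growth factor ligands and receptors studied in rhabdomyosarcoma were followed across 6 arrays of RD18 cells. The set named 10 genes: the ligand genes KITLG, HGF and IGF2, and the receptor genes KIT, PDGFRA, PDGFRB, MET, FGFR1, FGFR4 and IGF1R. A gene counted as measured when a row of the array table carried its symbol alone, and where several rows did, the brightest one by its mean on the 6 arrays was used. By this rule 9 of the 10 genes were measured, among 18417 genes with such a row. IGF2 was the exception, because its 1 row lists 3 symbols.

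RD18 cells are a laboratory line grown from embryonal rhabdomyosarcoma, a cancer of soft tissue whose cells resemble early skeletal muscle, and all cultures grew in medium with serum. In the RD18 NpBI-22 derivative, called miR-22 cells here, doxycycline switches on the microRNA miR-22. It was profiled on 2 induced arrays, with doxycycline at 1 µg/ml given for 6 days, and on 2 non-induced arrays, with none. The RD18 NpBI-206AS derivative, a further control, had 1 induced array with the same dose and time and 1 non-induced one. What NpBI-206AS cells express once induced, and whether a derivative is 1 clone, is not in the labels. The series calls the miR-22 replicates biological. A difference within miR-22 cells is that of induced minus non-induced arrays throughout.

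Receptor tyrosine kinases sit in the cell membrane, dimerise when they bind their ligand, and pass the signal through adaptors to the RAS-MAPK and PI3K-AKT relays. KIT ligand, also called stem cell factor, acts on KIT in blood-forming cells, mast cells, melanocytes and germ cells, and can stay on the surface of the cell that makes it or be shed. In skeletal muscle, HGF acts through MET on satellite cells and migrating muscle precursors, the fibroblast growth factors act on myoblasts through FGFR1 and FGFR4, and IGF2 acts through IGF1R. Growth signals through these receptors have been described in rhabdomyosarcoma.

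The sequence that the induced cells were built to make, and the start region of the single gene of the set with a large difference, are shown first. The mature arms of miR-22, from RefSeq (GRCh38.p14), lie on the minus strand at chr17:1713914-1713935 and chr17:1713952-1713973. Capitals mark the seed, bases 2 to 8, with which a microRNA pairs to its targets, and the 2 arms have different seeds.
hsa-miR-22-3p: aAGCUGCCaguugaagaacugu
hsa-miR-22-5p: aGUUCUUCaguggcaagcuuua
Message sequences of the 10 genes were not used here, so no seed match was sought in them. The KITLG start region in the same build, 250 bases before to 50 bases after the annotated start, lies on the minus strand at chr12:88580422-88580721, and capitals mark a TATAAA.
KITLG promoter: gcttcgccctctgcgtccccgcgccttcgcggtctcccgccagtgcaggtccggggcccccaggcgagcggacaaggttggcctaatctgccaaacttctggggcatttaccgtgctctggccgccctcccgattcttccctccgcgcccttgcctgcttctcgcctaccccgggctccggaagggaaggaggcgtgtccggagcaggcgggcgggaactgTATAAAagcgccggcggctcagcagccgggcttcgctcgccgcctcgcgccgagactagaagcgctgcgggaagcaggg
The TATAAA begins 29 bases before the start. Windows were at hand for 8 of the 10 genes, and KITLG was the single one of these with TATAAA on either strand, which 11.5% of all 35116 windows hold. CAGCTG, an E-box read by myogenic factors, was found for PDGFRA and PDGFRB (17.9% of all windows), and TGANTCA, the AP-1 motif, for PDGFRA (7.71%). The motifs were sought on both strands, CAGCTG and TGANTCA can overlap at TG, and a match describes letters, not a binding site.

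Values are log2 expression, on which a difference of 1 is a 2-fold difference. They are compared between arrays for 1 gene, or for the mean of 1 marker list, and not gene against gene, because probes differ in brightness. For the same reason, array quartiles and medians, which are made of all rows, place a level only roughly. MIR22HG, the host gene of miR-22, read 10.02 and 10.01 in induced miR-22 cells, with 6.27 and 6.72 in non-induced miR-22 cells, while the induced and non-induced NpBI-206AS arrays read 6.32 and 6.41, in accord with the labels. Array medians lay between 5.66 and 5.75 and lower quartiles between 3.92 and 4.01. A level under the lower quartile was not taken as above background. The labels give each array a code, and both induced miR-22 arrays carry the prefix R715, which no other array has. Non-induced replicate 1 carries R509, and the remaining 3 arrays carry R587. The meaning of the prefix is not in the labels. If it marks a batch, induction and batch cannot be told apart. Of 11 muscle markers, 9 lay above the array median on all 6 arrays, MYOD1 and MYOG among them, as did 10167 of all 18417 genes. MYF5 lay under the lower quartile on 5 arrays. Mast and blood cell, melanocyte, endothelial and epithelial marker lists had 0 of 22 measured genes pass in limma within miR-22 cells, with 1 at an unadjusted p under 0.05. Over all rows 3.6% passed and 21.6% were at an unadjusted p under 0.05, so a count of 0 in lists this short says little.

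KITLG was higher in induced miR-22 cells than on any other array. It read 7.26 and 7.59 in induced miR-22 cells, 4.29 and 4.31 in non-induced miR-22 cells, 4.69 in induced NpBI-206AS cells and 4.96 in non-induced NpBI-206AS cells. The groups did not overlap, and the gap to the nearest control array was far wider than any gap between replicates. The mean was 7.43 ± 0.23 in induced and 4.30 ± 0.011 in non-induced miR-22 cells (SD, n = 2 each), an 8.73-fold rise (log2 difference 3.13, SE 0.174, 95% interval 2.69 to 3.56, limma adjusted p = 0.014). In that comparison 3.6% of all rows passed, with 1.59% of rows higher and 2.01% lower, and KITLG had rank 4 by size of rise among 18417 genes. The non-induced level lay close above the lower quartiles of those arrays, so if it is background the fold is a minimum. Leaving out any single miR-22 array, no row passed, and the KITLG difference stayed between 2.96 and 3.29 (limma adjusted p from 0.107 to 0.403).

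**Figure D1:**
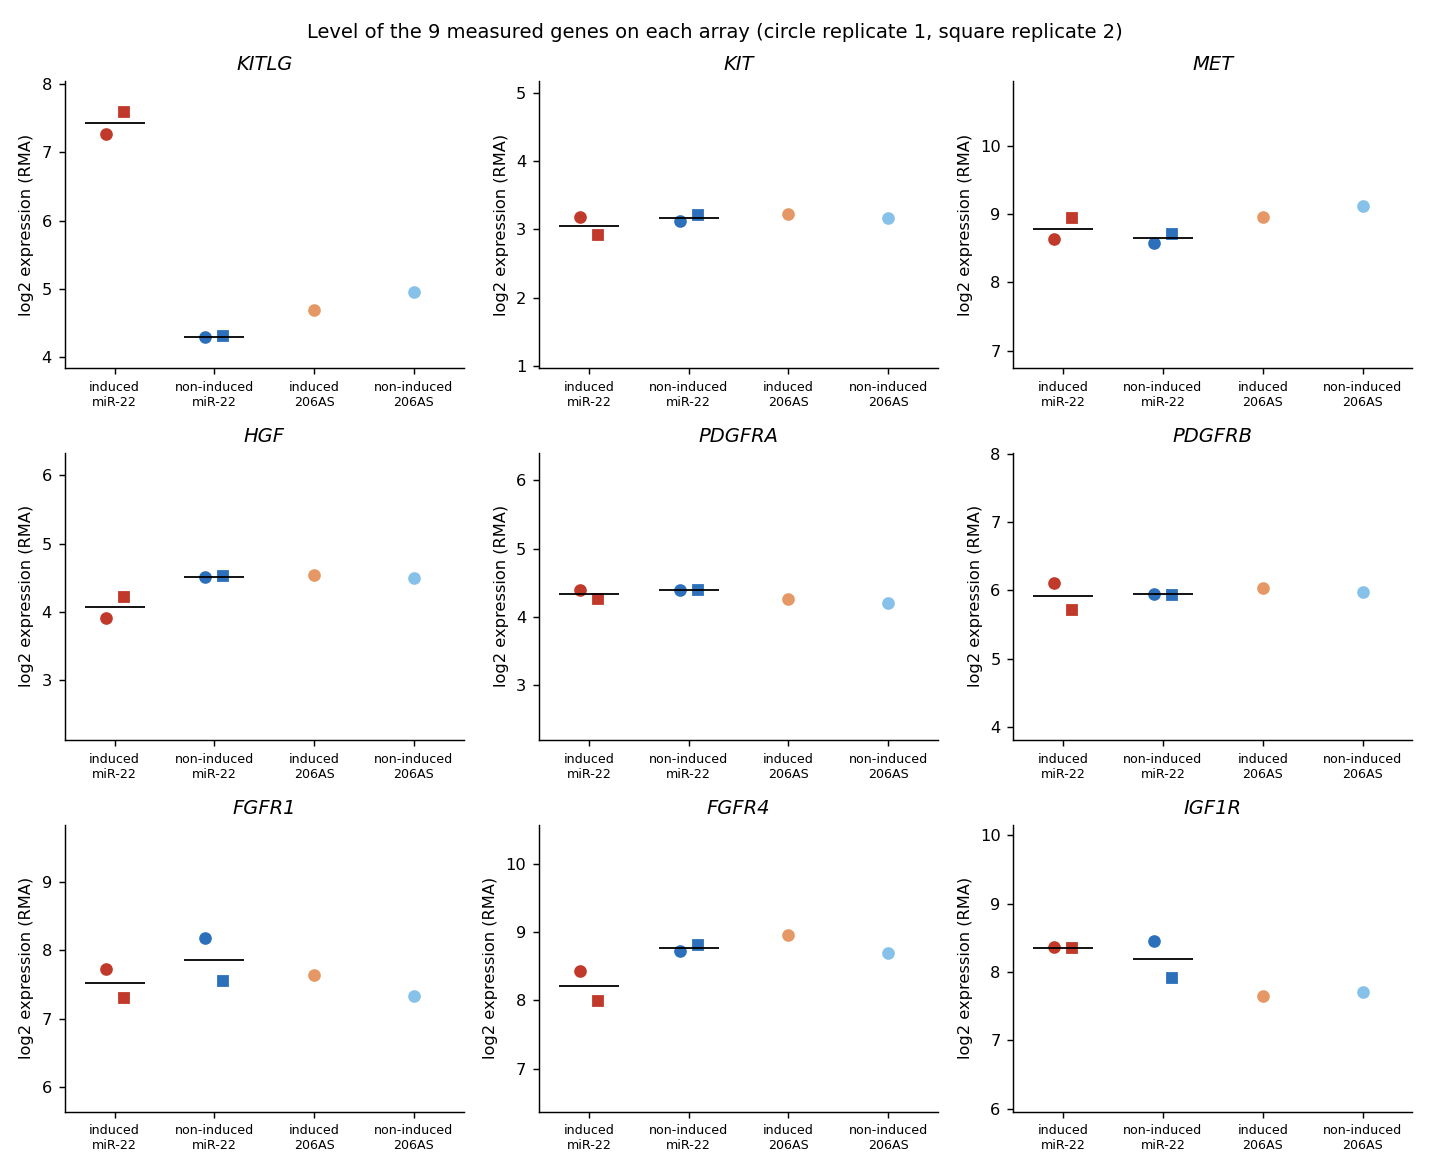
Log2 expression of the 9 measured genes on each of the 6 arrays, by group; each panel spans the same number of log2 units, points are arrays (circle replicate 1, square replicate 2) and lines are means of 2 arrays. KITLG at 7.26 and 7.59 in induced miR-22 cells stands above all other arrays, while KIT, PDGFRA and PDGFRB show no gap between groups.

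KITLG was also higher when induced miR-22 cells were set against the other control arrays. Against induced NpBI-206AS cells, which also had doxycycline, induced miR-22 cells were 6.68-fold higher for KITLG (log2 difference 2.74, SE 0.213, limma adjusted p = 0.0353), where 0.39% of all rows passed, 0.204% higher and 0.186% lower. That test assumes that the single NpBI-206AS array varies like the miR-22 replicates. The call was lost without any 1 of the 4 miR-22 arrays (limma adjusted p from 0.149 to 0.625), with a difference of 2.58 to 2.90. Against all 4 other arrays taken as 1 group, whose mean was 4.56 ± 0.32 (SD, n = 4), KITLG was 7.28-fold higher (log2 difference 2.86, SE 0.215, limma adjusted p = 0.000675). Here 13.7% of all rows passed, with 6.32% higher and 7.43% lower, and KITLG still passed without any 1 of the 6 arrays (adjusted p from 0.000698 to 0.0165). These comparisons share the induced miR-22 arrays and are not independent.

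In NpBI-206AS cells KITLG did not move the same way: the induced array read 0.27 below the non-induced array on the log2 scale, with 1 array each and no test. The difference between the 2 responses was 3.40 (SE 0.301, 95% interval 2.65 to 4.15), but limma gave it an adjusted p of 0.184, and 0% of all rows passed (2957 of 33297 at an unadjusted p under 0.05). Without doxycycline KITLG read 4.96 in NpBI-206AS cells and 4.29 and 4.31 in miR-22 cells, a gap of 0.66 to the mean that was not tested. None of the 9 genes was 2-fold apart between the non-induced derivatives, where 1.09% of all rows were.

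HGF, the ligand of MET, was a little lower in induced miR-22 cells, without passing against non-induced cells. It read 3.92 and 4.22 in induced miR-22 cells, with 4.51 and 4.52 in non-induced miR-22 cells, while the induced and non-induced NpBI-206AS arrays read 4.54 and 4.49. Both induced miR-22 arrays lay under the 4 others, which spanned 0.0438. The log2 difference to non-induced miR-22 cells was -0.44 (SE 0.171, 95% interval -0.87 to -0.02, limma adjusted p = 0.213). Against all 4 other arrays it was also -0.44 with a limma adjusted p of 0.0514, and without non-induced replicate 1, the array of prefix R509, -0.45 with an adjusted p of 0.0404. More of all rows passed in that run as well. Over the 6 runs that left out 1 array the HGF difference ran from -0.60 to -0.29, and no other of them passed. All HGF levels were near the lower quartile, and 1 induced array was under it.

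IGF2, the fetal insulin-like growth factor, was not read on its own. The row that lists INS-IGF2, INS and IGF2 read 7.68 and 7.59 in induced miR-22 cells, with 7.96 and 7.74 in non-induced miR-22 cells, while the induced and non-induced NpBI-206AS arrays read 7.70 and 7.37. Its log2 difference within miR-22 cells was -0.22 (SE 0.161, limma adjusted p = 0.521), and the row is credited to no gene.

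KIT, the receptor of the ligand encoded by KITLG, stayed dim. It read 3.18 and 2.92 in induced miR-22 cells, with 3.12 and 3.20 in non-induced miR-22 cells, while the induced and non-induced NpBI-206AS arrays read 3.22 and 3.16. These values overlap and lie under the lower quartile on all 6 arrays, so KIT was not shown to be above background in any group. The log2 difference was -0.11 (95% interval -0.52 to 0.30, limma adjusted p = 0.776). The 5 measured genes of the mast and blood cell list had a mean log2 level of 3.93 and 3.86 in induced miR-22 cells. It was 3.84 and 3.95 in the non-induced ones. TPSAB1 and MS4A2 of that list had no row with a single symbol. CD34 (-0.52) and HDC (-0.01) were lower, CPA3 (0.33), PTPRC (0.15) and SPI1 (0.04) were higher, and none passed.

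The platelet-derived growth factor receptor genes, relatives of KIT, did not pass either. PDGFRA, which neighbours KIT on chromosome 4 and marks mesenchymal precursors, read 4.40 and 4.27 in induced miR-22 cells, with 4.40 and 4.40 in non-induced miR-22 cells, while the induced and non-induced NpBI-206AS arrays read 4.26 and 4.21. The deposited value was identical on 3 arrays, as it is on 3 or more arrays for 456 rows (1.37%), so its spread may be understated. The log2 difference was -0.07 (95% interval -0.44 to 0.31, limma adjusted p = 0.854). All PDGFRA levels lay under the array median and not far above the lower quartile, so a small difference could be hidden by background. PDGFRB, a receptor of pericytes and fibroblasts, read 6.10 and 5.72 in induced miR-22 cells, with 5.95 and 5.93 in non-induced miR-22 cells, while the induced and non-induced NpBI-206AS arrays read 6.03 and 5.98. The 2 induced miR-22 arrays enclosed all 4 others, with a log2 difference of -0.03 (95% interval -0.49 to 0.43, limma adjusted p = 0.951).

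A second row lists PDGFRB together with EBF1, a transcription factor gene of B cells, and gave other values than the row of PDGFRB alone. Row 8115543 read 7.05 and 7.23 in induced miR-22 cells, with 5.03 and 4.77 in non-induced miR-22 cells, while the induced and non-induced NpBI-206AS arrays read 4.91 and 4.88. Its log2 difference within miR-22 cells was 2.24 (SE 0.173, limma adjusted p = 0.0145). The row has 2 symbols and is credited to neither gene.

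MET, the HGF receptor, lay above the array median on all 6 arrays. It read 8.64 and 8.94 in induced miR-22 cells, with 8.58 and 8.71 in non-induced miR-22 cells, while the induced and non-induced NpBI-206AS arrays read 8.96 and 9.11. The groups of miR-22 cells overlapped, and both NpBI-206AS arrays were above all 4 miR-22 arrays, by the narrowest margin over induced replicate 2. The log2 difference within miR-22 cells was 0.14 (95% interval -0.29 to 0.58, limma adjusted p = 0.71).

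Among the fibroblast growth factor receptors, FGFR4 was lower in induced miR-22 cells and FGFR1 was not separated. FGFR4, a receptor of muscle precursors that is often high in rhabdomyosarcoma, read 8.42 and 7.99 in induced miR-22 cells, with 8.71 and 8.80 in non-induced miR-22 cells, while the induced and non-induced NpBI-206AS arrays read 8.95 and 8.69. Both induced miR-22 arrays lay under all 4 others, but they were 0.44 apart, wider than the 0.26 spanned by the 4 others. The mean was 8.20 ± 0.31 in induced and 8.76 ± 0.062 in non-induced miR-22 cells (SD, n = 2 each), a log2 difference of -0.55 that did not pass (SE 0.196, 95% interval -1.04 to -0.07, limma adjusted p = 0.182). Against all 4 other arrays together FGFR4 passed, at -0.59 (SE 0.154, limma adjusted p = 0.0449).

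That FGFR4 call rested on single arrays. It was lost without induced replicate 1 (adjusted p = 0.0637), induced replicate 2 (-0.37, adjusted p = 0.27), non-induced replicate 2 (adjusted p = 0.105), the induced NpBI-206AS array (adjusted p = 0.103) or the non-induced one (adjusted p = 0.0768). Adjusted p for this difference ran from 0.0241 to 0.27 over 15 alternatives, 8 of which passed. The run without non-induced replicate 1 and the run with only controls of prefix R587 use the same arrays, so that pass is counted more than once. With the replicate block the fit reduces to the difference within miR-22 cells. The difference between the responses of the 2 derivatives was -0.82 (95% interval -1.66 to 0.03, limma adjusted p = 0.575). The mean log2 level of the 11 muscle markers was 7.94 and 7.85 in induced miR-22 cells, with 8.31 and 8.38 in non-induced miR-22 cells, while the induced and non-induced NpBI-206AS arrays read 8.10 and 7.98. CHRNG, DES and ACTC1 fell within miR-22 cells (limma adjusted p from 0.0257 to 0.0384), where 2.01% of all rows were called lower. The other 8 did not pass. Of these, CDH15 (-0.70), MYOG (-0.69), MYOD1 (-0.53), PAX3 (-0.33) and CHRNA1 (-0.21) were lower. MYF6 (0.52), PAX7 (0.33) and MYF5 (0.04) were higher. The marker means of both NpBI-206AS arrays lay between those of the induced and the non-induced miR-22 arrays. The markers' part in the FGFR4 difference was not tested.

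FGFR1, a receptor of proliferating myoblasts among many cells, read 7.73 and 7.30 in induced miR-22 cells, with 8.17 and 7.55 in non-induced miR-22 cells, while the induced and non-induced NpBI-206AS arrays read 7.64 and 7.33. The highest value was that of non-induced replicate 1, and the groups overlapped. The log2 difference within miR-22 cells was -0.35, with an interval from -1.01 to 0.32 (limma adjusted p = 0.537).

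IGF1R, the receptor through which IGF2 signals, read 8.37 and 8.34 in induced miR-22 cells, with 8.46 and 7.91 in non-induced miR-22 cells, while the induced and non-induced NpBI-206AS arrays read 7.65 and 7.71. Non-induced replicate 1 was the highest array and replicate 2 lay between the induced miR-22 and the NpBI-206AS arrays, so the groups overlapped. The log2 difference within miR-22 cells was 0.17 (95% interval -0.37 to 0.72, limma adjusted p = 0.724). Against all 4 other arrays it was 0.43 (adjusted p = 0.271). Without non-induced replicate 1, the highest of these controls, it was 0.60 and passed (adjusted p = 0.0127), but more of all rows passed in that run as well. Over the 6 runs that left out 1 array the difference ran from 0.33 to 0.60, and no other of them passed. A second IGF1R row read 7.90 and 7.85 in induced miR-22 cells, with 7.69 and 7.77 in non-induced miR-22 cells, while the induced and non-induced NpBI-206AS arrays read 7.29 and 7.42, with the induced miR-22 arrays above all others and a difference to the 4 others of 0.33 (limma adjusted p = 0.223).

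**Figure D2:**
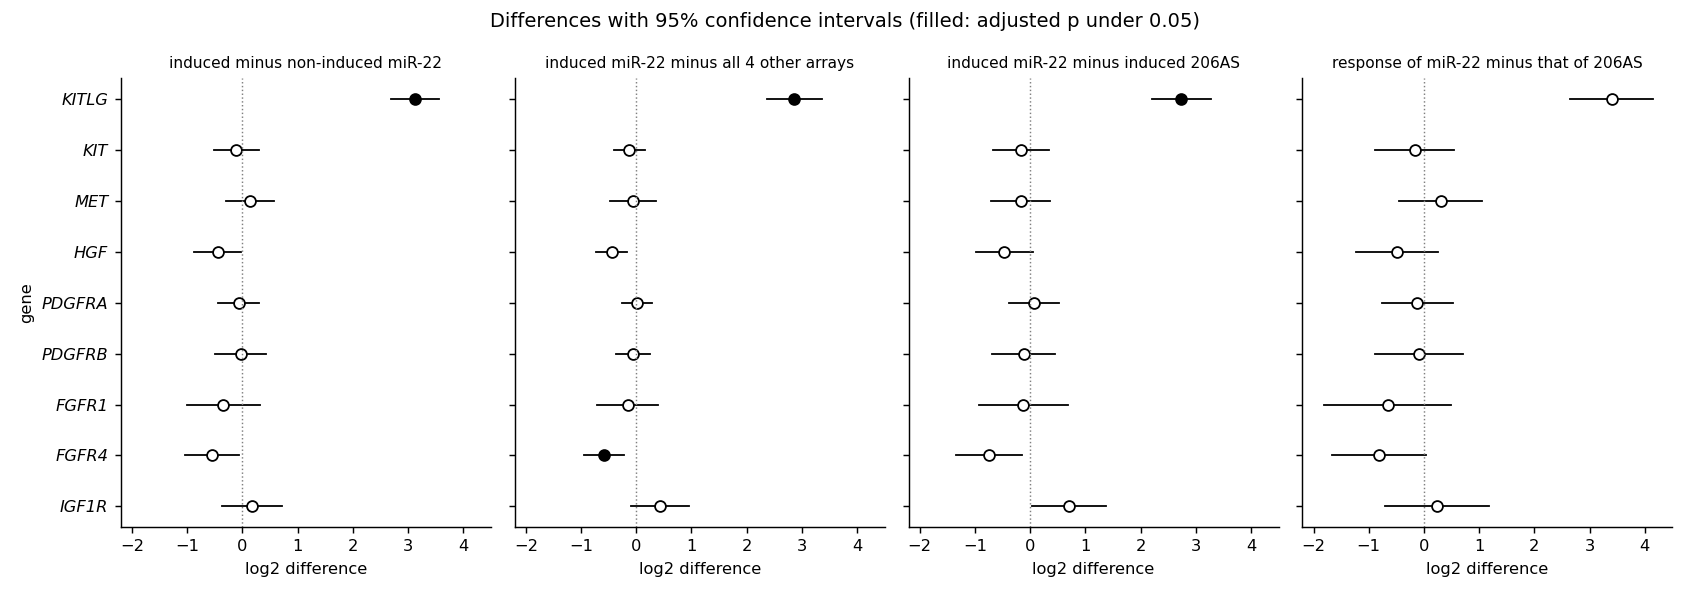
Log2 differences of the 9 genes in 4 comparisons, with 95% confidence intervals from limma; filled points passed at an adjusted p under 0.05. KITLG lies near 3 in every panel, FGFR4 is filled in 1 panel at -0.59, and the intervals of KIT, MET, PDGFRA, PDGFRB and FGFR1 include 0 throughout.

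Over the 9 measured genes, 1 rose and none fell within miR-22 cells, where 1.59% of all rows were called higher and 2.01% lower, and their median log2 difference was -0.07, against -0.01 over all rows. The induced miR-22 arrays were apart from both non-induced miR-22 arrays for 3 of 9 genes, where 51.1% of all rows were apart, and from all 4 other arrays for the same 3 genes, KITLG, HGF and FGFR4, where 37.8% of all rows were apart, 19.4% above and 18.3% below. In NpBI-206AS cells 0 of the 9 genes differed 2-fold between the induced and the non-induced array, where 0.673% of all rows did.

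Set against induced NpBI-206AS cells, which had the same doxycycline, KITLG was again the single gene of the 9 to pass. FGFR4 was lower in induced miR-22 cells by a log2 difference of -0.75 (95% interval -1.35 to -0.15, limma adjusted p = 0.226) and HGF by -0.47 (95% interval -0.99 to 0.05, adjusted p = 0.367). IGF1R was higher by 0.71 (95% interval 0.04 to 1.37, adjusted p = 0.293), a larger value than the 0.17 found within miR-22 cells, with the lowest IGF1R levels on the NpBI-206AS arrays. The differences of KIT, MET, PDGFRA, PDGFRB and FGFR1 lay between -0.17 and 0.07, with adjusted p from 0.769 to 0.915. The 95% interval was widest for FGFR1, at -0.93 to 0.69, and narrowest for PDGFRA, at -0.38 to 0.53.

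The genes around these receptors were read from 6 lists, and 5 of their 109 measured members passed within miR-22 cells, where 3.6% of all rows did. That share is near the share over all rows, so the calls named from each list say nothing particular to the lists, and a count of 0 or 1 in a list is near what that share gives. Of 23 other ligands of the receptors, PDGFD alone rose. PDGFD, which encodes a ligand of the PDGFRB protein, read 5.38 and 5.58 in induced miR-22 cells, with 4.08 and 3.97 in non-induced miR-22 cells, while the induced and non-induced NpBI-206AS arrays read 3.85 and 4.59. The log2 difference was 1.45 (SE 0.159, limma adjusted p = 0.022), with controls near the lower quartile and the NpBI-206AS pair 0.74 apart in the opposite direction. The median of the list was -0.05.

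Of 18 related receptors and coreceptors, NRP2 fell and none rose (median 0.03). NRP2, a coreceptor of semaphorins and vascular endothelial growth factors, read 5.57 and 5.47 in induced miR-22 cells, with 7.04 and 7.20 in non-induced miR-22 cells, while the induced and non-induced NpBI-206AS arrays read 6.57 and 7.74. The log2 difference was -1.60 (SE 0.155, limma adjusted p = 0.0191). The induced NpBI-206AS array was also lower than its non-induced array, by -1.17, and the difference between the responses was -0.44 (adjusted p = 0.711).

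None of 11 genes of IGF-binding proteins, proteases that cleave them and IGF2 mRNA-binding proteins passed in limma. Of these, 4 were at an unadjusted p under 0.05, where 21.6% of all rows were, and the list median was 0.17. The largest differences were those of IGFBP2, which binds insulin-like growth factors, and PAPPA, a protease that cleaves such binding proteins, at 1.14 (limma adjusted p = 0.0824) and 0.90 (adjusted p = 0.0832). IGFBP2 read 8.41 and 7.76 in induced miR-22 cells, against 7.14 and 6.74 in the non-induced ones. None of 9 genes for the processing of KIT ligand and HGF passed, with 1 at an unadjusted p under 0.05 and a median of -0.02. ADAM17, a sheddase of KIT ligand, and HPN, an activating protease of HGF, had the largest differences, 0.59 (limma adjusted p = 0.176) and -0.28 (adjusted p = 0.349).

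Of 31 measured genes of the adaptors and the PI3K-AKT and RAS-MAPK relays, 2 rose and none fell, with a median of -0.12. Both encode subunits of phosphoinositide 3-kinase. The other measured subunit genes of the list, PIK3CD (-0.34) and PIK3R1 (-0.32), were lower without passing (limma adjusted p = 0.298 and 0.31). PIK3CA and PIK3R2 had no row with a single symbol. The catalytic subunit gene PIK3CB read 7.98 and 7.93 in induced miR-22 cells, with 6.51 and 6.93 in non-induced miR-22 cells, while the induced and non-induced NpBI-206AS arrays read 7.15 and 7.19, with a log2 difference of 1.23 (SE 0.191, limma adjusted p = 0.0361). The regulatory subunit gene PIK3R3 read 9.94 and 10.20 in induced miR-22 cells, with 9.06 and 8.89 in non-induced miR-22 cells, while the induced and non-induced NpBI-206AS arrays read 9.17 and 8.74, with a difference of 1.10 (SE 0.171, adjusted p = 0.0366).

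Of 17 genes that downregulate receptors, CBL fell and none rose (median 0.003). CBL, the ubiquitin ligase that marks activated KIT, MET and PDGF receptors for degradation, read 6.89 and 7.08 in induced miR-22 cells, with 8.19 and 8.02 in non-induced miR-22 cells, while the induced and non-induced NpBI-206AS arrays read 8.14 and 8.09. The 4 control arrays lay within a narrow band and the induced miR-22 arrays about 1 unit below it, with a log2 difference of -1.12 (SE 0.163, limma adjusted p = 0.0326). For PDGFD, NRP2, PIK3CB, PIK3R3 and CBL the adjusted p rose to between 0.107 and 0.411 when single miR-22 arrays were left out in turn, and no direction changed.

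**Figure D3:**
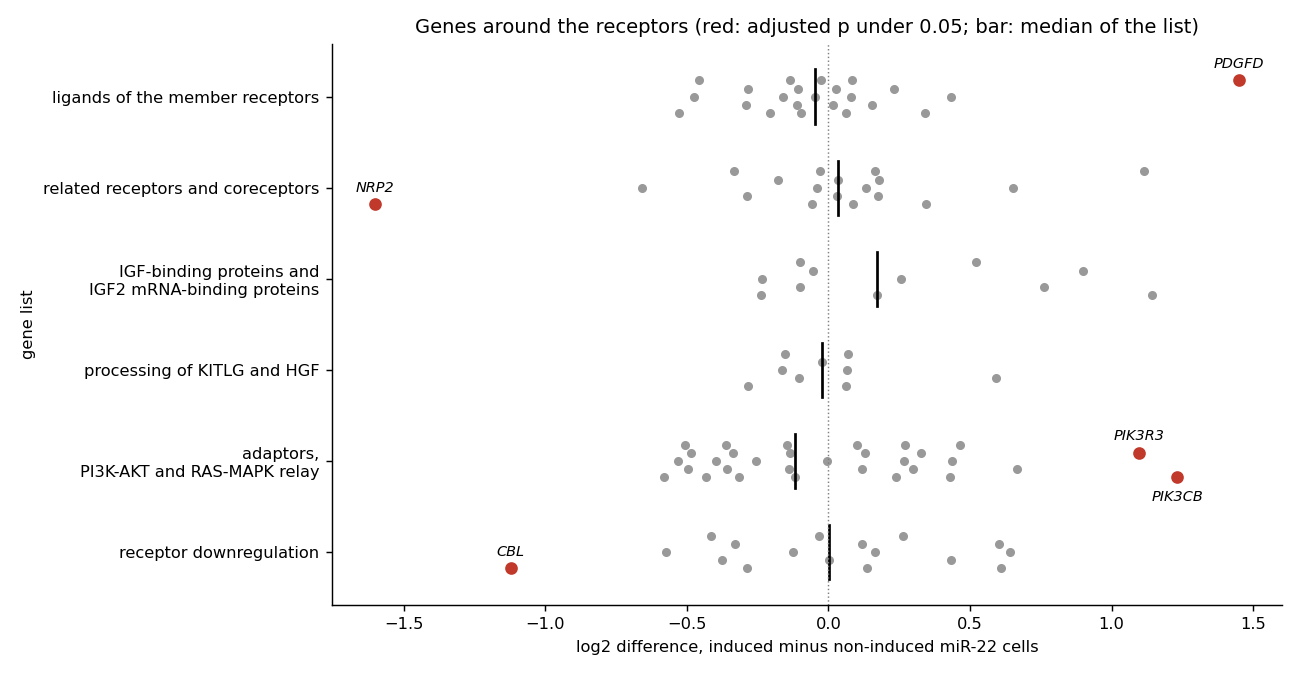
Log2 difference within miR-22 cells for 109 genes in 6 lists around the receptors; each point is a gene, black bars are list medians, and red points passed at an adjusted p under 0.05. The 5 red points are PDGFD, PIK3CB and PIK3R3 on the higher side and CBL and NRP2 on the lower side.

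The genes whose profile lay nearest to that of KITLG were sought among 18416 others by the distance between 6-array profiles, each centred on its own mean. The nearest was RNU4-2, a spliceosomal RNA gene, at a distance of 0.56 log2 units, where the KITLG profile itself has a length of 3.36. ST6GALNAC3, a sialyltransferase gene, ARHGAP29 and the spliceosomal RNA genes RNU5D-1 and RNU5E-1 followed at 0.74 to 0.88. The spliceosomal RNA genes belong to families with near-identical copies, so their values may mix several copies. All 5 were high on the 2 induced miR-22 arrays, so likeness here rests on the step between those and the rest.

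**Figure D4:**
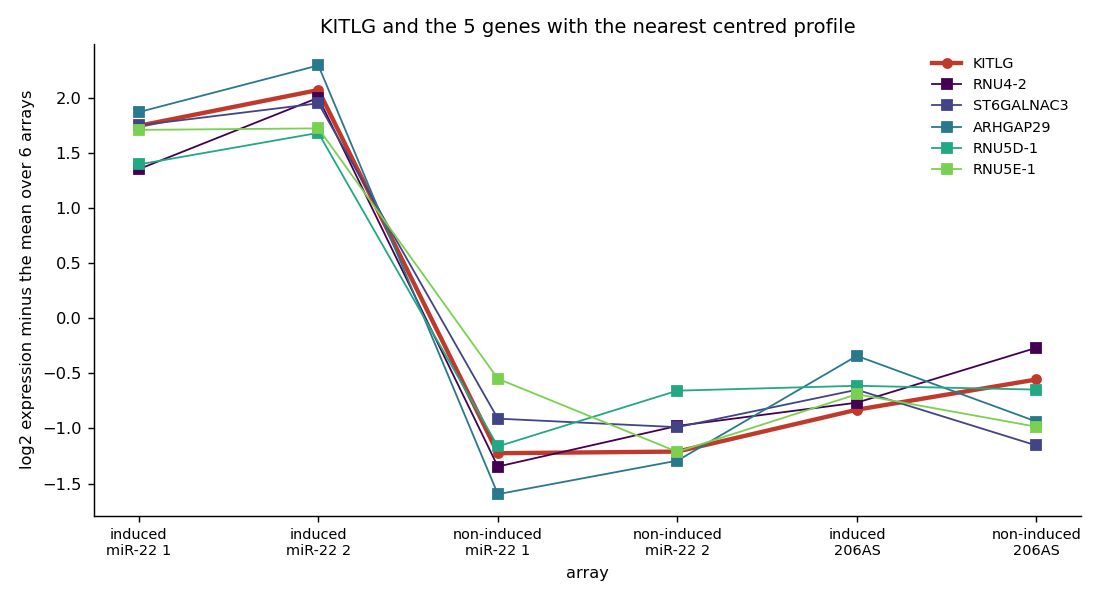
Log2 expression minus the mean over the 6 arrays for KITLG (thick red line) and the 5 genes with the nearest centred profile, one point per array. All 6 genes are high on the 2 induced miR-22 arrays and low on the other 4, among which their order varies.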

How the data were processed

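The authors deposited 1 table of log2 expression values with 33297 rows for 6 Affymetrix arrays, which the submitters' processing notes say were made by RMA with Partek. For versions, parameters and genome build, nothing was given in the sources used here. RMA makes the distributions of the arrays alike, so a shift of all genes together would not be seen. Groups came from the sample titles. Rows were named by the platform annotation, with symbols updated by gene ID (19429 of 19460 rows with 1 symbol matched).

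limma 3.58.1 in R 4.3.3 was fitted over all rows with a mean per group (2 residual and 3.62 prior degrees of freedom). A further fit took the 4 other arrays as 1 group (4 and 3.57). Tests were two-sided, and p was adjusted by Benjamini-Hochberg over all rows with 0.05 as the threshold. The code was run on simulated arrays with noise drawn alike for all. That run cannot show whether a single NpBI-206AS array varies like the miR-22 replicates. p-values measure only the spread between these arrays. Genes and lists were chosen with earlier results of these data known. Named list genes were up to 4 that passed within miR-22 cells, otherwise the 2 with the largest difference. Alternatives changed normalization, filtering, variance moderation, row choice, replicate block and arrays used.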

Additional observations from a re-analysis of the deposited data

Results flagged for a closer look

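For 3 of the 9 measured genes the induced miR-22 arrays lay on 1 side of both non-induced miR-22 arrays while the NpBI-206AS pair, of 1 array each, moved the other way. Over all rows 51.1% lay apart within miR-22 cells, and the share that also moved the other way was not counted. The count of 3 is therefore no result about this set, and for HGF the NpBI-206AS pair differed by only 0.0438. The difference between the 2 responses was 3.40 for KITLG, -0.49 for HGF and -0.82 for FGFR4 on the log2 scale; limma adjusted p was 0.184, 0.704 and 0.575, so none passed. Row 8115543, which lists EBF1 and PDGFRB and is used for no gene, was 2.24 higher in induced miR-22 cells than in the non-induced ones (limma adjusted p = 0.0145), with both induced miR-22 arrays above all 4 others.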

How the results depend on the processing

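KITLG kept its direction in every alternative run, and its calls changed only when arrays were left out. Without 1 miR-22 array its difference ran from 2.96 to 3.29 against non-induced miR-22 cells and from 2.58 to 2.90 against induced NpBI-206AS cells, and neither passed; other settings gave 3.13 to 3.20 and 2.74 to 2.80, and all passed. KITLG is not among the brighter 50 percent of rows and has no value under that filter. Within miR-22 cells (induced minus non-induced) 1200 rows passed in limma, 2609 without the dimmest 50 percent of rows, 2955 with the replicate block and 0 without any 1 miR-22 array (3526 to 8113 at an unadjusted p under 0.05). Centring arrays on their medians turned 531 higher and 669 lower rows into 718 and 574. Against all other arrays 4576 passed, 7463 with only the controls of prefix R587, and 897 to 7463 without 1 array. Against induced NpBI-206AS cells 130 passed, 747 without the dimmest rows, 221 with robust moderation, 75 with the rows of a gene averaged, 849 with the replicate block and 0 without 1 miR-22 array (2511 to 6377 at an unadjusted p under 0.05). FGFR4 against all other arrays also lost its call with arrays centred on their medians (-0.53, adjusted p = 0.0566). With the replicate block the NpBI-206AS arrays form a block of their own. That fit reduces to the difference within miR-22 cells (-0.55, adjusted p = 0.0977) and is no check of this call. IGFBP2 passed against non-induced miR-22 cells without the dimmest rows (adjusted p = 0.0274) and with the block (0.019), and PAPPA without the dimmest rows (0.0318). The labels only number the replicates; over all rows the deviations of same-numbered miR-22 arrays correlated at 0.196, with 2 pairs, and the block is no part of the main results. Signs of KIT, MET, PDGFRA, PDGFRB, FGFR1 and IGF1R differences changed under some settings, never past the threshold. The number of arrays limits the precision.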

Other observations

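With all 4 other arrays as 1 group, 13.7% of all rows passed, against 3.6% within miR-22 cells. In the list of 11 genes of IGF-binding proteins, proteases that cleave them and IGF2 mRNA-binding proteins, 4 passed, all higher in induced miR-22 cells. These were IGFBP2 by 1.29, IGFBP5 by 0.98, PAPPA by 0.90 and IGF2BP2 by 0.53 on the log2 scale (limma adjusted p from 0.0103 to 0.0247). INSR, the insulin receptor gene, was higher by 1.04 (adjusted p = 0.0099). It read 6.96 and 6.65 in induced miR-22 cells, 5.93 and 5.45 in non-induced miR-22 cells, while the induced and non-induced NpBI-206AS arrays read 5.97 and 5.71. In the same comparison IGF1R (adjusted p = 0.271), IGF1 (0.664), IGF2R (0.273), IRS1 (0.0644) and IRS2 (0.535) did not pass. INSR did not pass against non-induced miR-22 cells alone (1.11, adjusted p = 0.0601).

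CBLB, a relative of CBL, differed from it in direction: CBLB was higher by 0.65 (adjusted p = 0.0225) and CBL lower, by -1.13 (adjusted p = 0.00188), in induced miR-22 cells against all 4 other arrays. These genes were chosen after their values were seen.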
